A study of Danio rerio with 18 samples.

Results

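The comparison described here set livers labelled uhrf1 mutant against livers labelled control in larvae that received the solvent DMSO without an inhibitor. Its members were taken from the sample titles: 4 control and 5 mutant libraries, 9 of the 18 in the series. All larvae were zebrafish of the strain ABNYU from crosses of hi272 carriers, hi272 being an allele made by an insertion in uhrf1, and all carried a fluorescent membrane reporter under the hepatocyte promoter fabp10a. They were held in 0.5% DMSO from 48 h after fertilization, and pools of 15 to 20 livers of one genotype were dissected at 120 h. The other 9 libraries came from larvae that also received 20 µM palbociclib, which blocks the cell cycle kinases CDK4 and CDK6. They entered the choice of genes to test, the scaling, and the estimates of the spread between libraries and of the muscle slope described below. Total RNA freed of ribosomal RNA was sequenced, and the authors deposited a read count per gene. Whether the pools of 1 group stem from different clutches is not in the labels, and the p-values therefore reflect variation among these pools, some of which may be technical.

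Uhrf1 protein recognises newly replicated, hemimethylated DNA and brings the maintenance DNA methyltransferase to it, so that methylation is copied at cell division. The larval liver at this age is growing and takes over secretion, glycogen storage, bile formation, fat oxidation in mitochondria and peroxisomes, and the breakdown of amino acids, purines and pyrimidines. Gene families of these and other functions are described below. Some members also stand in the lists of interferon and inflammation, sterol, and hepatocyte genes, which were set aside in ranking the largest changes. Gene symbols are those of the gene name table, partly in capitals, and the last 6 digits of the gene ID follow a symbol that several IDs share. Numbers given as a pair in brackets after a gene are its log2 fold changes, mutant minus control, in the 2 fits described below. The counting may have divided the reads of near-identical copies among IDs, which makes their levels uncertain.

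Total counts ranged from 4141600 to 5199301 in control and from 2467926 to 3618445 in mutant libraries. Muscle genes, 92 in the list, took 4.24%, 5.75%, 3.62% and 3.39% of the counts in control replicates 1 to 4. In mutant replicates 1 to 5 they took 5.27%, 5.92%, 7.51%, 6.998% and 6.76%. Control replicate 2 was the control library whose muscle share lay within the mutant range. Control libraries had a mean muscle share of 4.25% ± 1.06 (SD, n = 4) and mutant libraries one of 6.49% ± 0.891 (SD, n = 5), and an exact two-sided permutation test over all assignments of the libraries gave p = 0.0317, adjusted over 16 shares 0.0508. The adjusted p was 0.026 without control replicate 2 and 0.0457 without mutant replicate 1, and between 0.0831 and 0.0914 without any one of the other libraries. Leaving out a library also leaves fewer assignments and so a coarser p, which limits what these values say about single libraries. Without control replicate 1 the difference in means stayed at 2.24 percentage points, with an adjusted p of 0.0857. Skin, nervous system, eye and lens, stellate cell, cartilage and bone, and pronephros genes had higher mean shares in the mutant libraries too. Skin took 0.684% ± 0.178 (SD, n = 4) against 1.03% ± 0.143 (SD, n = 5). For skin the exact permutation test gave p = 0.0397, adjusted over 16 shares 0.0577. By the exact permutation test, nervous system, stellate cell, cartilage and bone, and pronephros shares each had p = 0.0238, adjusted over 16 shares 0.0476. For eye and lens the exact permutation test gave p = 0.0317, adjusted 0.0508. Erythroid, exocrine pancreas, intestine and endothelial shares had adjusted p of 0.18 to 0.787 in the exact permutation test. Biliary genes took 0.214% ± 0.017 (SD, n = 4) in the controls against 0.342% ± 0.0187 (SD, n = 5) in the mutants and did not overlap (exact p = 0.00794, adjusted over 16 shares 0.0423). A share weighs abundant members most, and this list holds the keratins krt8 and krt18a.1, whose higher levels in mutant libraries are given below. Gene by gene, 6 of 27 tested biliary genes were higher and 3 lower without the covariate and 3 and 3 with it. Their median log2 fold change was 0.059 without and -0.015 with the covariate, beside 0.06 and 0.01 over all genes. Genes of hepatocyte proteins and enzymes, of which 427 of 439 had counts, took 14.5% ± 1.52 (SD, n = 4) against 7.3% ± 1.03 (SD, n = 5) (exact p = 0.00794, adjusted over 16 shares 0.0423), and the genes of the mitochondrial genome 3.17% ± 0.238 (SD, n = 4) against 2.77% ± 0.0647 (SD, n = 5). All these shares are fractions of the total counts, so a lower hepatocyte share raises the share of genes that did not change. Scaled by library size alone, the median log2 fold change over all genes was 0.42. How much of the higher muscle and other shares stems from this was not tested. In pooled tissue, fewer cells of a type and less RNA per cell cannot be told apart.

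**Figure D1:**
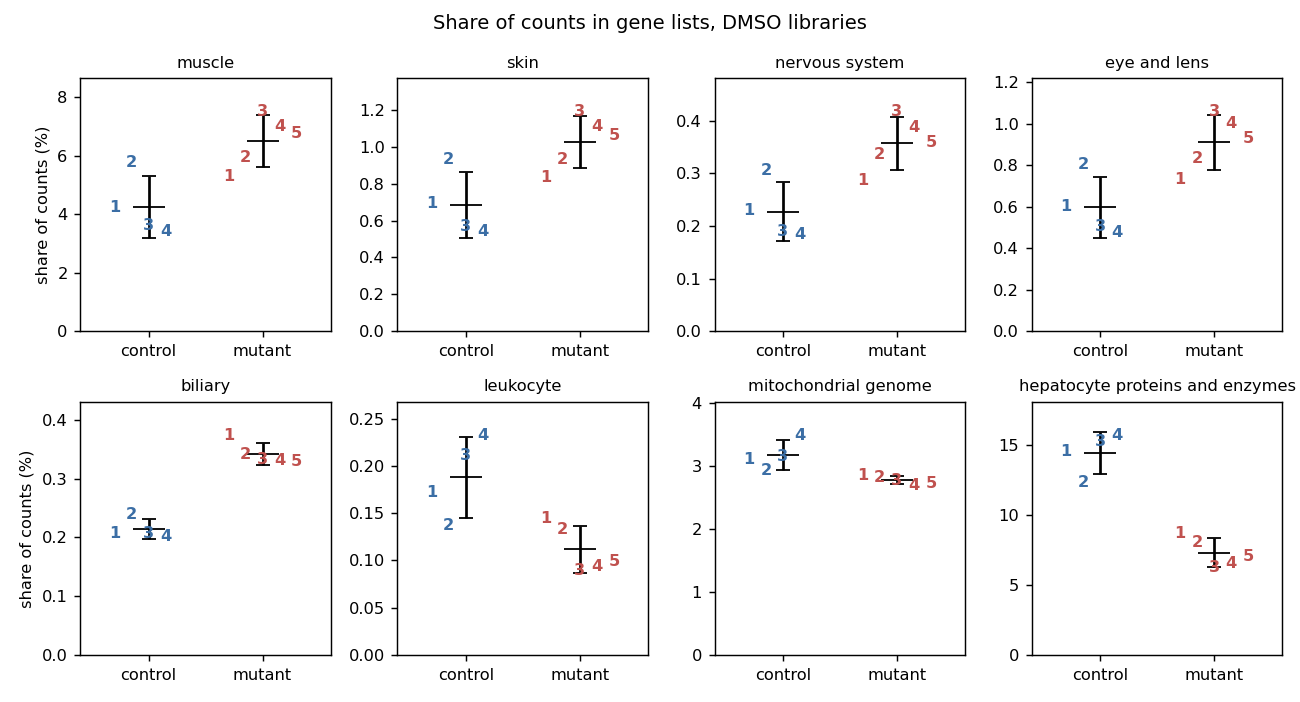
Share of all counts (%) in each of 8 gene lists for the 4 control (blue) and 5 mutant (red) DMSO libraries; digits are replicate numbers, and bars give the mean and SD. Nervous system and eye shares rank the 9 libraries in the same order as the muscle share, with control replicate 2 at 5.75% muscle inside the mutant range of 5.27% to 7.51%, whereas the biliary and hepatocyte shares separate the groups.

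The targeted gene was read in every library. UHRF1 was at 40.03, 46.9, 29.1 and 35.3 CPM (read counts scaled to a common library size with TMM factors) in control replicates 1 to 4 and at 47.6, 33.7, 49.3, 47.9 and 53.9 CPM in mutant replicates 1 to 5. The groups overlapped, and UHRF1 was called in neither fit. UHRF1 differed by 0.29 on the log2 scale (SE 0.16, adjusted p = 0.223) without and -0.043 (SE 0.20, adjusted p = 0.961) with the covariate. Scaled by library size alone it was called higher (log2 fold change 0.63, adjusted p = 0.00785). Counts per gene do not show where along a transcript the reads lie, so this level does not check the genotype labels, and every direction below rests on those labels.

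Each gene was tested with edgeR's quasi-likelihood test in 2 fits, both over the 18 libraries, with Benjamini-Hochberg adjustment over 17048 genes and a threshold of 0.05. The first fit compared the group means. The other added the log2 muscle share of each library as a covariate, with 1 slope over the 18 libraries. Its fold change is the difference that this slope predicts between genotypes at an equal muscle share. Among controls, replicate 2 alone had a share within the mutant range, so this prediction is largely an extrapolation. The covariate may also take up genotype differences in liver RNA, hepatocyte genes having a median slope of -0.89 per doubling of muscle share. Muscle RNA and such differences cannot be told apart, so calls kept or lost with the covariate do not separate them. Without the covariate 1145 genes were higher (6.72% of those tested) and 1772 lower (10.4%) in mutant libraries, 17.1% in all. With it 634 were higher (3.72%) and 520 lower (3.05%), 6.77% in all. Of these, 440 genes were higher and 486 lower in both fits, which is 38.4% and 27.4% of the genes higher and lower without the covariate, and no gene was called in opposite directions (0 genes). Another 194 genes were called higher and 34 lower in the covariate fit alone. In 994 genes (5.83% of those tested) every mutant library was above every control library, and in 1405 (8.24%) every one was below. Genes named by rule had to be among these, so their lack of overlap is no result. Without mutant replicate 1 the covariate fit called 330 genes higher and 325 lower, and without control replicate 2, 455 and 275. Scaling by library size alone, without TMM factors, gave 4681 genes higher and 1027 lower in the fit without the covariate, and 737 and 448 with it. The slope on muscle share itself was called for 2151 genes, 657 of them rising and 1494 falling with it.

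**Figure D2:**
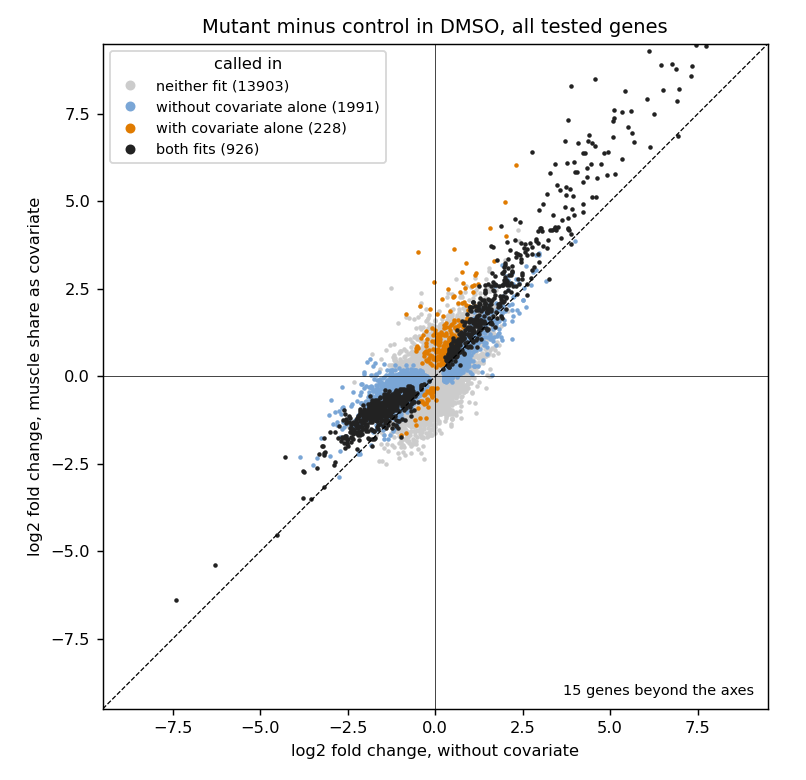
Log2 fold change of mutant minus control for each of 17048 tested genes without (horizontal) and with (vertical) the muscle share as covariate; colours show the fits that called the gene, the dashed line marks equal values, and 15 genes lie beyond the axes. Of the 1991 genes called without the covariate alone, 1806 have a smaller change with it, and the 926 genes called in both keep their direction.

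The all-gene median log2 fold change was 0.06 without and 0.01 with the covariate, and it serves as the reference for each family median below. The all-gene shares of 6.72% higher and 10.4% lower without the covariate, and 3.72% and 3.05% with it, serve likewise for each family's counts. Scaling by library size alone moved it to 0.42, a shift of 0.36, because TMM factors were below 1 in control and at or above 1 in mutant libraries. Under that scaling 19 of the 59 family medians turned from negative to positive, among them the medians of the citric acid cycle, serine and folate, methionine, secretory, glycosylation, heme and insulin families given below. Relative to the all-gene median of the same scaling, every one of the 59 family medians kept its sign (0 changed). A change of scaling moves all genes by nearly the same amount, so this outcome was close to fixed in advance. It cannot show which scaling gives the true direction. Where leaving out 1 library moved a family count printed below by over 1.5 times and either count was 5 or more, the paragraph on that family says so. Moves of counts that are not printed are left out.

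**Figure D3:**
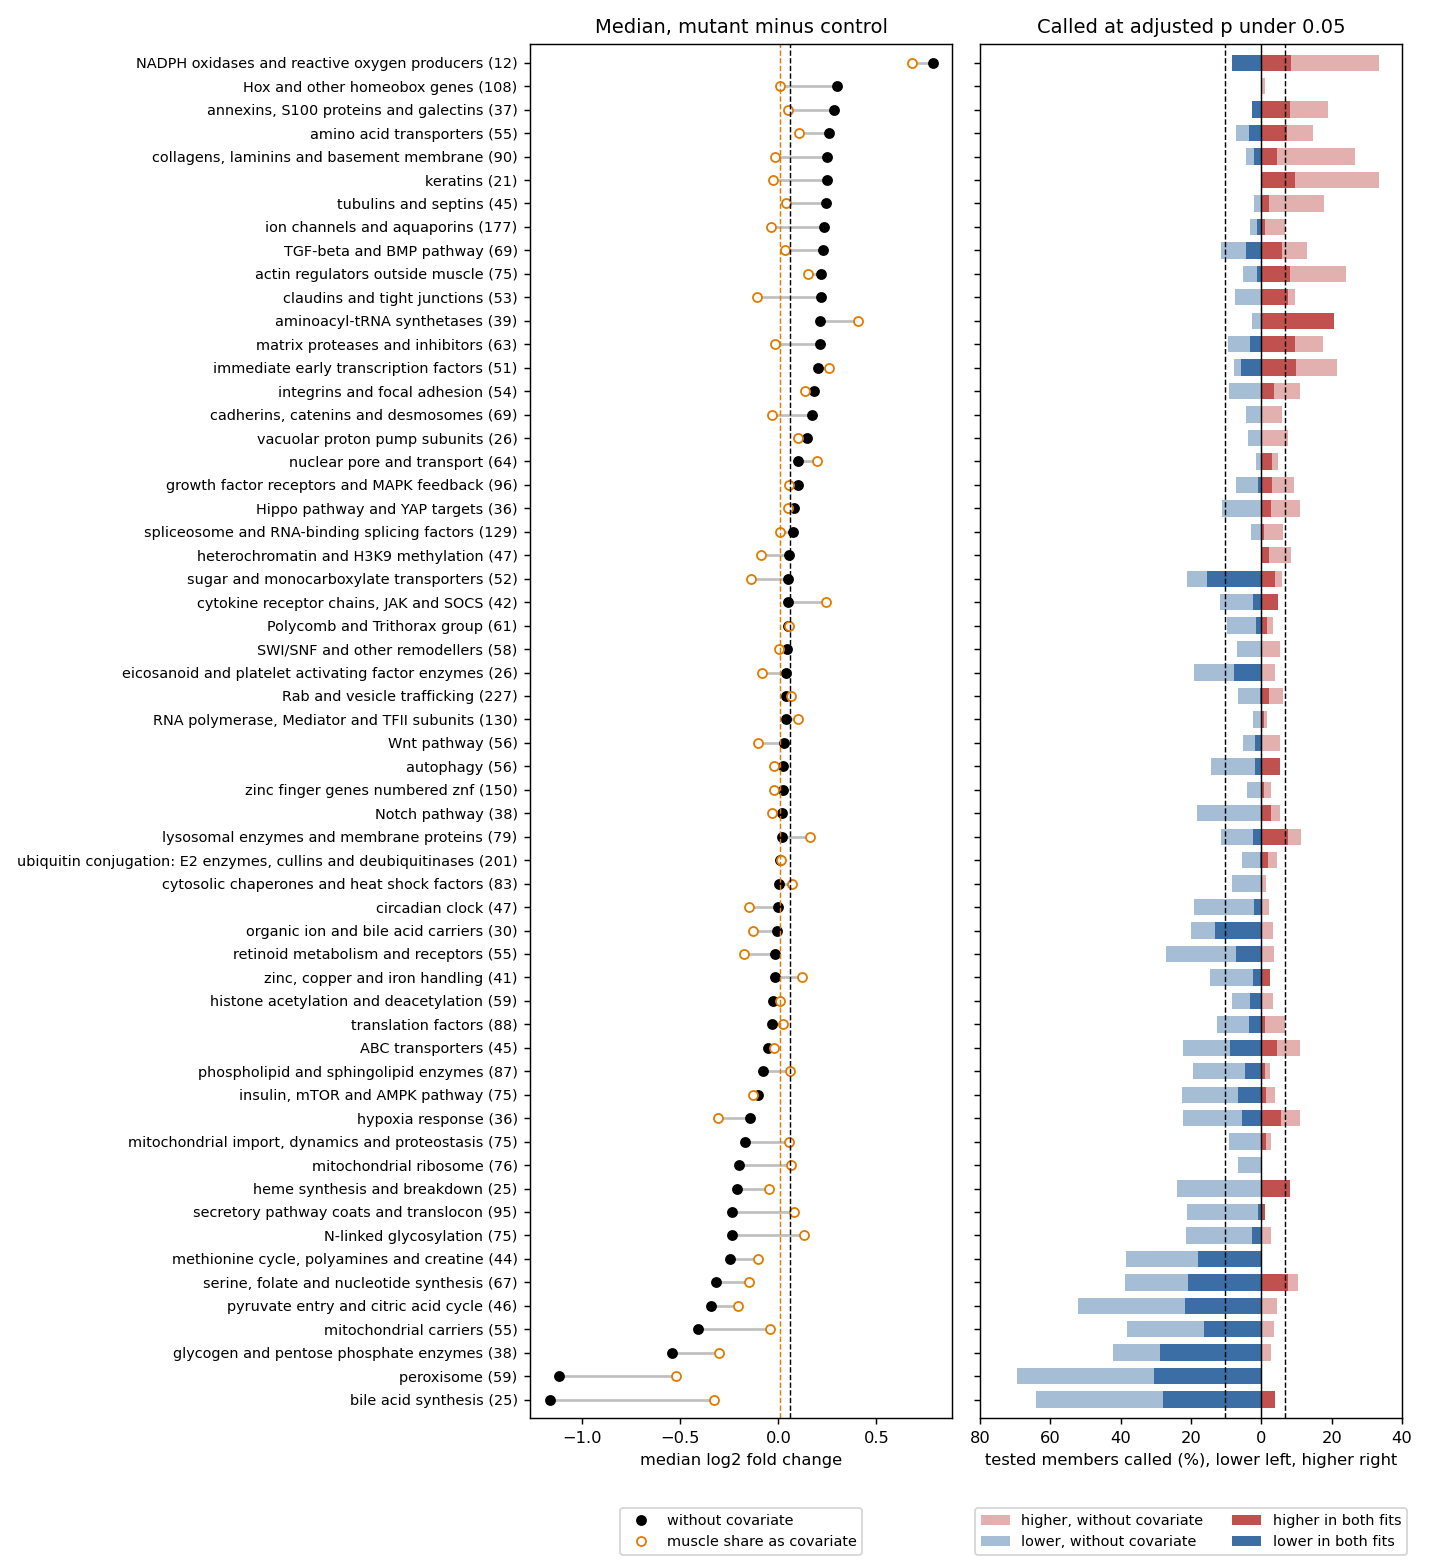
Left, median log2 fold change of mutant minus control over the tested members of 58 gene families (number of members in brackets) without (filled) and with (open) the muscle share as covariate, with dashed lines at the all-gene medians of 0.06 and 0.01. Right, percentage of members called lower (blue, to the left) and higher (red, to the right), with the part called in both fits in the darker shade and dashed lines at the background of 10.4% and 6.72%; peroxisome and bile acid synthesis stand lowest, and aminoacyl-tRNA synthetases are the family whose median rises with the covariate to 0.40.

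The 10 largest decreases called in both fits, outside the set-aside lists of interferon and inflammation, sterol, and hepatocyte genes, included several membrane carriers. Transcripts of slc47a2.1, a multidrug and toxin extrusion carrier, were at 59.9, 34.7, 84.8 and 77.7 CPM in control and 5.92, 6.4, 9.74, 6.45 and 3.08 CPM in mutant libraries. Its groups were far apart, lack of overlap being part of the naming rule. slc47a2.1 differed by -3.31 on the log2 scale (SE 0.41, adjusted p = 3.5e-05) without and -2.22 (SE 0.45, adjusted p = 0.00371) with the covariate. The organic anion transporter oatx (log2 fold change -3.18 without and -2.19 with the covariate), the monocarboxylate carrier SLC16A12_017773 (-3.17 and -2.26) and the organic cation transporter SLC22A2 (-2.61 and -1.91) behaved likewise. COMTD1, which encodes a protein of the catechol methyltransferase family (-3.24 and -1.98), the peroxisomal fatty acid transporter abcd2 (-2.86 and -1.58), the aldehyde reductase akr1a1a (-2.66 and -1.73), the interleukin subunit ebi3 (-2.65 and -1.77) and the lectin ITLN1_095082 (-2.57 and -2.05) were also among the 10. The remaining gene was dio3b, the deiodinase that inactivates thyroid hormone, at 803, 598, 673 and 612 CPM in control and 158, 149, 71.2, 69.2 and 119 CPM in mutant libraries. dio3b differed by -2.57 on the log2 scale (SE 0.37, adjusted p = 0.000146) without and -1.7 (SE 0.36, adjusted p = 0.00861) with the covariate. ITLN1_095082, SLC22A2, dio3b, oatx and slc47a2.1 lost their calls in the fit with the covariate when control replicate 2 was left out (adjusted p = 0.0621 to 0.423).

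The 10 largest increases by the same rule were low or near zero in control livers. plaua and ACOD1, described below with their families, changed by as much but stand in the set-aside list of interferon and inflammation genes. cd40, a receptor of the tumour necrosis factor family, was at 0.702, 0.486, 0.498 and 0.26 CPM in control and 18.6, 21.8, 7.04, 8.93 and 13.9 CPM in mutant libraries. cd40 differed by 4.74 on the log2 scale (SE 0.57, adjusted p = 1.25e-07) without and 6.08 (SE 0.73, adjusted p = 4.88e-09) with the covariate. Mutant replicates 1 and 2 were highest for this gene. bcl3, a nuclear member of the I-kappa-B family, went from 0.702, 0.486, 0.498 and 1.82 CPM to 24, 17.2, 6.49, 19.3 and 20.4 CPM. bcl3 differed by 4.28 on the log2 scale (SE 0.57, adjusted p = 3.8e-06) without and 6.37 (SE 0.70, adjusted p = 1.73e-10) with the covariate. The others were tmem176l.2 (log2 fold change 4.58 without and 5.13 with the covariate), the membrane fusion protein snap23.2 (3.89 and 4.08), the integrin subunit itga2.1 (3.78 and 6.09), the phosphatase mdp1 (3.74 and 5.42), the adhesion molecule icam3 (3.72 and 4.83), the collagenase mmp13a (3.58 and 5.32), the microfibril-associated MFAP4_090557 (3.41 and 4.26) and hephl1a, a relative of the copper oxidase hephaestin (3.39 and 4.21). Fold changes of all 10 were larger in the fit with the covariate. Several had few control reads, 8 over the 4 libraries for cd40 and 6 each for snap23.2 and itga2.1, so their fold changes are imprecise. MFAP4_090557 and snap23.2 lost their calls in the fit with the covariate when mutant replicate 1 was left out (adjusted p = 0.0539 to 0.092).

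Peroxisomes shorten very long and branched fatty acids, complete bile acid side chains and detoxify the hydrogen peroxide that this produces. Of 59 tested peroxisome genes, 41 fell and 0 rose without the covariate, against a background of 10.4% lower, and the median log2 fold change was -1.12. With the covariate 18 fell and 1 rose, with a median of -0.52. HSD17B4, the bifunctional enzyme of peroxisomal beta-oxidation, was at 313, 263, 307 and 295 CPM in control and 129, 117, 99.9, 111 and 104 CPM in mutant libraries. Neither group spread widely and the groups were far apart. HSD17B4 differed by -1.39 on the log2 scale (SE 0.10, adjusted p = 3.2e-13) without and -1.08 (SE 0.11, adjusted p = 1.98e-11) with the covariate. The oxidase ACOX3 (log2 fold change -1.79 without and -1.22 with the covariate), the thiolase ACAA1 (-1.45 and -0.90) and the carrier protein scp2a (-1.64 and -1.19) fell in both fits. The count of peroxisome genes lower with the covariate went from 18 to 9 without control replicate 2.

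Catalase, which removes hydrogen peroxide, was at 609, 402, 732 and 749.6 CPM in control and 205, 179.8, 135, 155 and 155 CPM in mutant libraries. CAT differed by -1.91 on the log2 scale (SE 0.21, adjusted p = 1.27e-05) without and -1.08 (SE 0.10, adjusted p = 1.63e-12) with the covariate. Control replicate 2, with the highest muscle share of the controls, was the lowest control for catalase. The log2 slope of CAT per doubling of muscle share was -1.27 (quasi-likelihood test, adjusted p = 3.31e-12). The part of muscle share in the fall of CAT was not tested further. PHYH, of the alpha-oxidation of branched fatty acids (log2 fold change -1.86 without and -1.08 with the covariate), and AGXT_052099 (-2.5 and -2.0) and HAO1 (-1.66 and -0.99), of glyoxylate and glycolate handling, fell in both fits too. Among the import factors, PEX5, the receptor that carries enzymes into the organelle, had a log2 fold change of -0.68 without (adjusted p = 0.00082) and -0.34 with the covariate (adjusted p = 0.465). The sole member that rose, in the covariate fit alone, was the polyamine oxidase PAOX (0.55 and 1.11). AGXT_052099, HAO1 and PHYH lost their calls in the fit with the covariate when control replicate 2 was left out (adjusted p = 0.0819 to 0.312) and PAOX without control replicate 1 or mutant replicate 1 or 2 (adjusted p = 0.059 to 0.13).

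Bile acids are made from cholesterol by hydroxylation and side-chain shortening and are then exported into bile. Of 25 tested synthesis genes, 16 fell and 1 rose (median -1.17), and with the covariate 7 fell and 1 rose (median -0.33). slc27a2a, a relative of the mammalian enzyme that activates bile acids and very long fatty acids (log2 fold change -1.74 without and -1.56 with the covariate), and HSD3B7, which acts on the steroid ring (-1.24 and -0.91), fell in both fits. HSD17B4 and ACOX3, which the peroxisome list holds too, were also counted here. CYP7B1, an oxysterol hydroxylase, fell without the covariate alone (-1.26 and -0.32). klb, the co-receptor of FGF19 signalling, rose (1.65 and 1.71), and FGF19 itself was low, at 3.75, 2.19, 13.2 and 17.1 CPM in control and 2.25, 2.91, 0.541, 0.496 and 0.77 CPM in mutant libraries, with overlapping groups. FGF19 differed by -2.67 on the log2 scale (SE 0.67, adjusted p = 0.00662) without and -0.30 (SE 0.77, adjusted p = 0.922) with the covariate. The canalicular bile salt pump ABCB11 was at 825, 618, 1407 and 1474 CPM in control and 335, 292, 182, 171 and 229.8 CPM in mutant libraries. ABCB11 differed by -2.16 on the log2 scale (SE 0.33, adjusted p = 0.000251) without and -0.92 (SE 0.20, adjusted p = 0.0111) with the covariate. In the whole set of 45 ABC transporters 10 fell and 5 rose (4 and 2 with the covariate), the falls in both fits including abcg2a (-1.21 and -0.71) and the cholesterol exporter ABCA1 (-1.11 and -0.39). ABCA1 lost the call in the fit with the covariate when control replicate 2 was left out (adjusted p = 0.231), ABCB11 without control replicate 2 or mutant replicate 1 (adjusted p = 0.0564 to 0.32), and klb without control replicate 2 or mutant replicate 1 or 2 (adjusted p = 0.0628 to 0.163). The count of ABC transporters higher without the covariate went from 5 to between 2 and 8 without control replicate 1, 2, 3 or 4 or mutant replicate 3, 4 or 5.

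Liver stores glucose as glycogen and exchanges it with blood through the low-affinity transporter GLUT2. SLC2A2, its gene, was at 233, 187, 251 and 275 CPM in control and 53.3, 56.1, 45.2, 54.3 and 50.4 CPM in mutant libraries. Mutant libraries differed little among themselves, and the difference was called with a small error in both fits. SLC2A2 differed by -2.19 on the log2 scale (SE 0.14, adjusted p = 1.23e-12) without and -1.62 (SE 0.13, adjusted p = 7.89e-15) with the covariate. SLC2A1_007412, which encodes a high-affinity GLUT1 transporter, changed in the opposite direction, from 28.1, 27.7, 21.4 and 24.7 CPM in control to 48.2, 52.4, 41.1, 42.4 and 54.7 CPM in mutant libraries. SLC2A1_007412 differed by 0.90 on the log2 scale (SE 0.16, adjusted p = 4.08e-05) without and 0.99 (SE 0.22, adjusted p = 0.00133) with the covariate. PFKFB3, a bifunctional enzyme that makes the glycolytic activator fructose 2,6-bisphosphate, rose as well (log2 fold change 1.91 without and 2.16 with the covariate). SLC37A4, the glucose 6-phosphate carrier of the endoplasmic reticulum, fell (-1.45 and -0.60), as did the lactate and pyruvate carrier SLC16A1_068572 (-1.21 and -0.54) and its relative SLC16A13 (-1.67 and -1.01). The family of 52 sugar and monocarboxylate transporters had 11 members lower and 3 higher without and 8 and 3 with the covariate, and its medians were 0.051 and -0.14. SLC16A13 lost the call in the fit with the covariate when control replicate 2 or mutant replicate 1 was left out (adjusted p = 0.0739 to 0.427) and SLC16A1_068572 and SLC37A4 without control replicate 2 (adjusted p = 0.244 to 0.259). The count of sugar and monocarboxylate transporters higher without the covariate went from 3 to 5 without control replicate 2. The count of sugar and monocarboxylate transporters lower with the covariate went from 8 to between 2 and 5 without control replicate 2 or mutant replicate 1.

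Of 38 tested genes of glycogen and pentose phosphate metabolism, 16 fell and 1 rose (median -0.54), with 11 and 1 in the covariate fit (median -0.30). Enzymes of both glycogen synthesis and breakdown were among the falls. The liver glycogen synthase GYS2 was at 429.6, 297, 488 and 474 CPM in control and 148, 102, 87.4, 118 and 103 CPM in mutant libraries. GYS2 differed by -1.92 on the log2 scale (SE 0.22, adjusted p = 2.08e-05) without and -1.13 (SE 0.14, adjusted p = 2.08e-06) with the covariate. UGP2_005578, which makes the glucose donor (log2 fold change -2.32 without and -1.57 with the covariate), the branching enzyme GBE1_099524 (-2.06 and -1.12), the phosphorylase PYGL (-1.64 and -0.71), the phosphorylase kinase subunit phka1a (-1.17 and -0.86), the glycogen-binding stbd1 (-2.02 and -1.3) and the phosphatase targeting subunit PPP1R3G (-1.87 and -0.96) fell in both fits. Transketolase of the pentose phosphate pathway was the member higher without the covariate (TKT, 0.43 and 0.16), and H6PD the member higher with it (-0.48 and 0.82). H6PD lost the call in the fit with the covariate when any 1 of the 9 libraries was left out (adjusted p = 0.0517 to 0.103), PPP1R3G and phka1a without mutant replicate 1 (adjusted p = 0.059 to 0.162), and PYGL without control replicate 2 or mutant replicate 1 (adjusted p = 0.101 to 0.294). TKT lost the call in the fit that lacks the covariate when control replicate 3 or mutant replicate 5 was left out (adjusted p = 0.0811 to 0.0965).

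The citric acid cycle oxidises the products of sugar, fat and amino acid breakdown. Of 46 tested genes of pyruvate entry and the cycle, 24 fell and 2 rose without the covariate (median -0.35), and with it 10 fell and 0 rose (median -0.21). Pyruvate carboxylase, which feeds gluconeogenesis and the cycle (PC_098766, log2 fold change -1.43 without and -0.78 with the covariate), the pyruvate dehydrogenase kinase PDK2_020876 (-1.36 and -0.68), SUCLG1 (-0.87 and -0.48), and the cytosolic enzymes IDH1 (-1.03 and -0.55) and MDH1 (-0.65 and -0.29) fell in both fits. The 2 that rose without the covariate were CS, the citrate synthase that opens the cycle (0.32 and 0.24), and IDH2 (0.34 and 0.079). MDH1 lost the call in the fit with the covariate when control replicate 1 or mutant replicate 1 or 2 was left out (adjusted p = 0.0709 to 0.247) and PDK2_020876 without mutant replicate 1 (adjusted p = 0.0599). The count of citric acid cycle genes lower with the covariate went from 10 to 5 without mutant replicate 1.

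Mitochondrial carriers move metabolites across the inner membrane. Of 55 tested, 21 fell and 2 rose without the covariate (median -0.41), against 9 and 1 with it (median -0.043). The acylcarnitine carrier SLC25A20, which admits long-chain fatty acids for oxidation, was at 246, 205, 285 and 289 CPM in control and 127, 113, 98, 85.3 and 127 CPM in mutant libraries. SLC25A20 differed by -1.22 on the log2 scale (SE 0.11, adjusted p = 1.55e-10) without and -0.77 (SE 0.12, adjusted p = 1.08e-06) with the covariate. The dicarboxylate carrier SLC25A10_025074 (log2 fold change -1.13 without and -0.94 with the covariate), the liver carrier SLC25A47 (-1.6 and -1.12), the citrate carrier SLC25A1_076381 (-1.8 and -0.94), SLC25A34 (-1.29 and -1.09) and the uncoupling protein UCP1 (-1.4 and -0.83) fell in both fits. The families of the organelle's own protein machinery had shares of lower calls of 6.58% and 9.33%, beside a background of 10.4%. Of 76 mitochondrial ribosome genes 5 fell and 0 rose without the covariate, 0 and 0 with it (medians -0.20 and 0.067), and of 75 import and proteostasis genes 7 fell and 2 rose (0 and 4 with the covariate). The count of mitochondrial ribosome genes lower without the covariate went from 5 to between 1 and 8 without control replicate 1, 2, 3 or 4 or mutant replicate 3 or 4. The count of import and proteostasis genes lower without the covariate went from 7 to 12 without control replicate 2.

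Serine synthesis, folate enzymes and nucleotide metabolism moved in both directions. Of 67 tested genes 26 fell and 7 rose without the covariate (median -0.32), and 14 fell and 5 rose with it (median -0.15). PHGDH, the entry enzyme of serine synthesis, was at 29.3, 40.1, 22.9 and 23.9 CPM in control and 64.3, 72.1, 44.7, 54.3 and 55.4 CPM in mutant libraries. PHGDH differed by 1.0 on the log2 scale (SE 0.17, adjusted p = 2.48e-05) without and 0.86 (SE 0.22, adjusted p = 0.00853) with the covariate. The next enzyme of that pathway, PSAT1, was at 11.2, 16.8, 11.4 and 9.61 CPM and 47.1, 41, 16.2, 22.1 and 35 CPM, with mutant replicate 3 just below the highest control. PSAT1 differed by 1.39 on the log2 scale (SE 0.24, adjusted p = 3.2e-05) without and 1.59 (SE 0.31, adjusted p = 0.00028) with the covariate. The mitochondrial folate enzymes MTHFD1L (log2 fold change 1.18 without and 1.72 with the covariate), mthfd2 (0.68 and 0.94) and ALDH1L2 (0.64 and 1.34) also rose in both fits, although the groups overlapped for mthfd2 and ALDH1L2. PHGDH lost the call in the fit with the covariate when mutant replicate 1 was left out (adjusted p = 0.155) and mthfd2 without control replicate 1 or 2 or mutant replicate 1 or 2 (adjusted p = 0.0534 to 0.264). ALDH1L2 lost the call in the fit that lacks the covariate when control replicate 1, 2 or 4 or mutant replicate 1, 2 or 5 was left out (adjusted p = 0.0692 to 0.181) and mthfd2 without control replicate 1 or mutant replicate 1 or 2 (adjusted p = 0.0567 to 0.0633). The count of serine, folate and nucleotide genes higher without the covariate went from 7 to 4 without control replicate 1 or 4 or mutant replicate 2 or 5. The count of serine, folate and nucleotide genes lower with the covariate went from 14 to between 6 and 8 without control replicate 2 or mutant replicate 1. The count of serine, folate and nucleotide genes higher with the covariate went from 5 to 3 without mutant replicate 1.

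Their cytosolic counterparts fell. ALDH1L1 was at 512, 410.1, 909 and 905 CPM in control and 217, 189, 173, 175.8 and 184 CPM in mutant libraries. ALDH1L1 differed by -1.86 on the log2 scale (SE 0.24, adjusted p = 4.96e-05) without and -0.91 (SE 0.13, adjusted p = 3.18e-05) with the covariate. MTHFD1_040492 (log2 fold change -1.4 without and -0.77 with the covariate) and the cytosolic serine hydroxymethyltransferase SHMT1 (-1.38 and -0.68) fell in both fits, as did the mitochondrial isozyme SHMT2 (-1.06 and -0.73). Enzymes that break down purines and pyrimidines fell as well. Xanthine dehydrogenase, which makes urate, was at 442, 322, 479 and 551 CPM in control and 114, 109, 60.1, 81.8 and 82.8 CPM in mutant libraries. XDH differed by -2.32 on the log2 scale (SE 0.23, adjusted p = 3.33e-06) without and -1.52 (SE 0.12, adjusted p = 2.53e-15) with the covariate. Urate oxidase uox (-2.18 and -1.12), guanine deaminase GDA (-2.14 and -1.04), and the consecutive pyrimidine enzymes DPYD_010267 (-2.09 and -1.26), DPYS (-2.44 and -1.59) and UPB1 (-1.88 and -1.13) fell in both fits. DPYD_010267, GDA and MTHFD1_040492 lost their calls in the fit with the covariate when control replicate 2 or mutant replicate 1 was left out (adjusted p = 0.0644 to 0.315), SHMT2 without control replicate 2 (adjusted p = 0.332), and uox without control replicate 2 or mutant replicate 1 or 2 (adjusted p = 0.0539 to 0.162).

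Of 44 tested genes of the methionine cycle, polyamines and creatine, 17 fell and 0 rose without the covariate, with 8 and 3 with it (medians -0.24 and -0.11). Both steps of creatine synthesis fell. GATM, the first, was at 3481, 3023, 3583 and 3246 CPM in control and 1067, 989, 916, 958 and 1059.8 CPM in mutant libraries. GATM differed by -1.74 on the log2 scale (SE 0.11, adjusted p = 1.3e-09) without and -1.56 (SE 0.16, adjusted p = 2.4e-05) with the covariate. GAMT, the second, had log2 fold change -1.96 without and -1.41 with the covariate. Of the enzymes that make and recycle the methyl donor S-adenosylmethionine, MAT1A (-1.62 and -0.79) and AHCY (-1.28 and -0.77) fell, as did CBS, which diverts homocysteine to cysteine (-1.44 and -0.63). Of the polyamine genes, the acetyltransferase SAT1_035652 (-1.31 and -1.04) and the antizyme OAZ2 (-0.89 and -0.65) fell in both fits, and the ornithine decarboxylase ODC1 was called higher in the covariate fit alone (0.12 and 1.17). AHCY and CBS lost their calls in the fit with the covariate when control replicate 2 or mutant replicate 1 was left out (adjusted p = 0.0726 to 0.167) and MAT1A without control replicate 2 (adjusted p = 0.0899). The count of methionine cycle, polyamine and creatine genes lower with the covariate went from 8 to between 4 and 5 without control replicate 2 or mutant replicate 1.

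**Figure D4:**
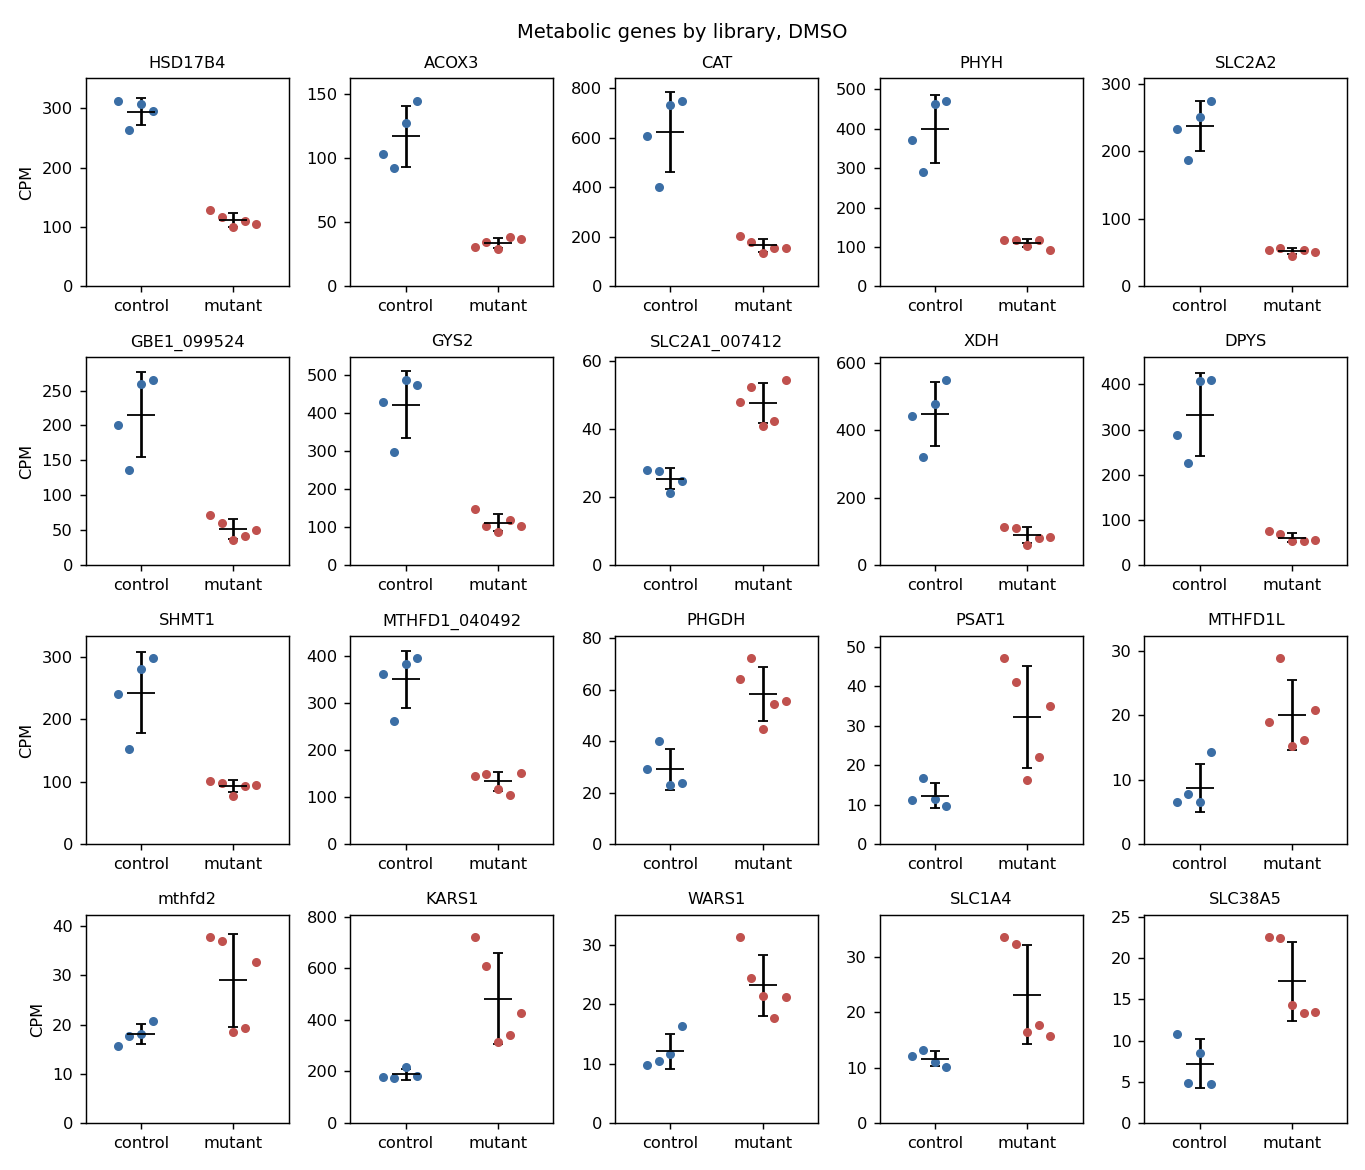
CPM of 20 metabolic genes in the 4 control (blue) and 5 mutant (red) DMSO libraries, in replicate order from left to right, with mean and SD; every axis starts at 0. Peroxisomal, glycogen and nucleotide breakdown genes are lower in every mutant library, while SLC2A1_007412, PHGDH, MTHFD1L, KARS1 and SLC38A5 are higher in every mutant library, and PSAT1 and mthfd2 overlap in part. Genes named by rule were picked for lack of overlap, which is therefore no result for them.

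Aminoacyl-tRNA synthetases load amino acids onto tRNAs for translation. Of 39 tested members and cofactors, 8 rose and 1 fell without the covariate, beside a background of 6.72% higher, and 13 rose and 0 fell with it (medians 0.21 and 0.40). KARS1, the lysine enzyme, was at 177, 175.8, 218 and 182 CPM in control and 720.1, 609, 314, 342 and 427 CPM in mutant libraries. Mutant replicates 1 and 2 were the highest. KARS1 differed by 1.36 on the log2 scale (SE 0.25, adjusted p = 0.00108) without and 1.92 (SE 0.28, adjusted p = 0.000459) with the covariate. WARS1 for tryptophan (log2 fold change 0.94 without and 1.42 with the covariate), RARS1 for arginine (0.65 and 1.04), MARS1 for methionine (0.57 and 0.81), NARS1 for asparagine (0.46 and 0.71), FARSA for phenylalanine (0.43 and 0.51), the glutamate and proline enzyme EPRS1 (0.42 and 0.63) and the scaffold AIMP2 (0.55 and 0.61) rose in both fits. TARS1, YARS1, IARS1, AARS1 and GARS1 were called in the covariate fit alone, with log2 fold changes of 1.05, 1.0, 0.51, 0.36 and 0.40. The member that fell, without the covariate alone, was FARS2, a mitochondrial enzyme (-1.01 and -0.65). AARS1 lost the call in the fit with the covariate when control replicate 1 or mutant replicate 1 was left out (adjusted p = 0.0611 to 0.292) and AIMP2 without control replicate 2 or mutant replicate 1 or 2 (adjusted p = 0.0729 to 0.137). FARSA lost the call in the fit with the covariate when control replicate 1 or 3 or mutant replicate 1, 2 or 5 was left out (adjusted p = 0.0535 to 0.359) and GARS1 without control replicate 1 or mutant replicate 1 or 2 (adjusted p = 0.0862 to 0.333). FARSA lost the call in the fit that lacks the covariate when control replicate 1 or 3 was left out (adjusted p = 0.0612 to 0.0706).

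Amino acid transporters rose and fell by individual gene, 8 of 55 rising and 4 falling without and 5 and 2 with the covariate. Without it these were 14.5% and 7.27%, beside 6.72% and 10.4% of all tested genes. SLC38A5, a glutamine and serine carrier, was at 10.8, 4.86, 8.46 and 4.68 CPM in control and 22.5, 22.4, 14.3, 13.4 and 13.5 CPM in mutant libraries. SLC38A5 differed by 1.25 on the log2 scale (SE 0.27, adjusted p = 0.000655) without and 1.46 (SE 0.38, adjusted p = 0.00738) with the covariate. The neutral amino acid exchangers SLC1A4 (log2 fold change 1.0 without and 1.11 with the covariate) and SLC1A5 (0.63 and 0.89) and the heavy chain SLC3A2 (0.62 and 0.65) rose in both fits. Its partner SLC7A5 rose without the covariate alone (0.72 and 0.62). SLC38A3_027065, the glutamine carrier typical of hepatocytes, fell from 147, 106, 199 and 245 CPM to 25.9, 31.7, 31.9, 35.5 and 39.7 CPM. SLC38A3_027065 differed by -2.4 on the log2 scale (SE 0.27, adjusted p = 1.2e-05) without and -1.58 (SE 0.30, adjusted p = 0.0034) with the covariate. The cationic carrier slc7a1a fell too (-1.7 and -1.26). Of 88 translation factors 6 rose and 11 fell without and 7 and 3 with the covariate. Without it these were 6.82% and 12.5%, near the 6.72% and 10.4% of all tested genes. The falls in both fits were the translation repressor eif4ebp3_054916 (-1.28 and -1.15), larp1b (-0.89 and -0.54) and the elongation factor eef1a1l1 (-0.19 and -0.14), and the rise was ABCF1 (0.30 and 0.46). Scaled by library size alone, eef1a1l1 had a log2 fold change of 0.17 and was not called (adjusted p = 0.203). ABCF1 and larp1b lost their calls in the fit with the covariate when mutant replicate 1 was left out (adjusted p = 0.0901 to 0.191) and SLC1A4 without mutant replicate 1 or 2 (adjusted p = 0.0834 to 0.357). SLC1A5 and SLC38A5 lost their calls in the fit with the covariate when control replicate 2 or mutant replicate 1 was left out (adjusted p = 0.0576 to 0.253) and eef1a1l1 without control replicate 2 or mutant replicate 1 or 2 (adjusted p = 0.0544 to 0.229). slc7a1a lost the call in the fit with the covariate when control replicate 1 or 2 or mutant replicate 2 was left out (adjusted p = 0.0663 to 0.306). ABCF1 lost the call in the fit that lacks the covariate when control replicate 1, 2, 3 or 4 or mutant replicate 1, 2 or 5 was left out (adjusted p = 0.0546 to 0.108) and SLC7A5 without control replicate 1, 3 or 4 or mutant replicate 1, 2, 3 or 5 (adjusted p = 0.0516 to 0.122). The count of amino acid transporters higher without the covariate went from 8 to 13 without control replicate 2. The count of amino acid transporters higher with the covariate went from 5 to 1 without mutant replicate 1. The count of translation factors higher without the covariate went from 6 to between 2 and 3 without control replicate 1 or 4 or mutant replicate 2. The count of translation factors lower without the covariate went from 11 to 7 without control replicate 3 or 4 or mutant replicate 2. The count of translation factors higher with the covariate went from 7 to 3 without control replicate 2 or mutant replicate 1.

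Genes of insulin, mTOR and AMPK signalling were lower in 17 and higher in 3 of 75 tested cases (covariate fit 5 and 1; medians -0.11 and -0.13). The mTOR inhibitor DEPTOR was at 117, 97.4, 109 and 118 CPM in control and 43.7, 45.7, 40.3, 49.1 and 33.9 CPM in mutant libraries. DEPTOR differed by -1.37 on the log2 scale (SE 0.13, adjusted p = 3.2e-10) without and -1.14 (SE 0.17, adjusted p = 9.74e-07) with the covariate. The insulin receptor INSR_011948 (log2 fold change -0.82 without and -0.61 with the covariate), the kinase AKT2_103612 (-0.78 and -0.55) and MTOR itself (-0.73 and -0.45) fell in both fits, and sesn2, a stress-induced inhibitor of the mTOR complex, rose (1.67 and 2.23). Growth hormone receptors were lower: ghrb fell in both fits (-1.7 and -1.16), and ghra without the covariate alone (-1.9 and -0.85). Among 42 cytokine receptor chains, JAK and SOCS genes the counts depended on the covariate, 2 higher and 5 lower without it and 6 and 1 with it. Without it these were 4.76% and 11.9%, near the 6.72% and 10.4% of all tested genes. The interleukin receptor il4r.1 (2.08 and 3.1) and the kinase TYK2 (1.25 and 1.44) rose in both, while the shared receptor chain il6st (0.64 and 1.43) and the feedback inhibitor SOCS3_026611 (0.42 and 1.01) were called with the covariate alone. AKT2_103612 lost the call in the fit with the covariate when control replicate 2 or mutant replicate 1 was left out (adjusted p = 0.0515 to 0.0815) and INSR_011948 without control replicate 2 (adjusted p = 0.226). MTOR lost the call in the fit with the covariate when control replicate 1, 3 or 4 or mutant replicate 1 or 2 was left out (adjusted p = 0.0531 to 0.135) and SOCS3_026611 without mutant replicate 1 (adjusted p = 0.17). TYK2 lost the call in the fit with the covariate when control replicate 1 or 2 or mutant replicate 1 or 2 was left out (adjusted p = 0.0659 to 0.199) and ghrb without control replicate 2 or mutant replicate 1 or 2 (adjusted p = 0.0939 to 0.301). The count of insulin, mTOR and AMPK genes lower with the covariate went from 5 to 3 without mutant replicate 1. The count of cytokine receptor, JAK and SOCS genes lower without the covariate went from 5 to 3 without control replicate 4. The count of cytokine receptor, JAK and SOCS genes higher with the covariate went from 6 to 2 without mutant replicate 1.

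Iron, heme and vitamin A genes moved in both directions, with more falls than rises without the covariate. hamp, which encodes the iron hormone hepcidin, was at 5.38, 11.4, 31.3 and 53 CPM in control and 95, 101, 72.3, 82.3 and 73.9 CPM in mutant libraries. Control libraries ranged widely. hamp differed by 1.76 on the log2 scale (SE 0.51, adjusted p = 0.0274) without and 3.34 (SE 0.60, adjusted p = 0.00285) with the covariate. The hemopexin hpxb rose from 147, 101, 143 and 167 CPM to 655, 534, 274, 265 and 368 CPM. hpxb differed by 1.59 on the log2 scale (SE 0.35, adjusted p = 0.00459) without and 2.58 (SE 0.32, adjusted p = 0.000105) with the covariate. In contrast, hpxa fell without the covariate (log2 fold change -2.92 without and -1.37 with the covariate). The heme oxygenase HMOX1 rose (1.86 and 2.1), and ACO1, the cytosolic aconitase that also senses iron, fell (-1.7 and -0.86). In the zinc, copper and iron family of 41 genes, hamp was the 1 member higher and 6 were lower (2.44% and 14.6%, beside 6.72% and 10.4% of all tested genes). With the covariate 1 was higher and 1 lower (medians -0.016 without and 0.12 with it). The heme family held 2 members higher and 6 lower of 25 (2 and 0 with the covariate). Of 55 retinoid genes 15 fell and 2 rose (4 and 0 with the covariate), the falls in both fits being the plasma carriers RBP4 (-1.66 and -0.94) and TTR (-1.88 and -1.07), the intracellular carrier RBP2_093774 (-2.26 and -1.25) and the retinol dehydrogenase DHRS9 (-1.15 and -0.62). Of 177 ion channels and aquaporins 12 rose and 6 fell (6.78% and 3.39%, beside 6.72% and 10.4% of all tested genes). With the covariate 2 rose and 2 fell. The calls held in both fits were falls of the aquaporins aqp9b (-1.44 and -1.34) and AQP8 (-0.69 and -0.78). The intracellular channel proteins CLIC2 (2.02 and 2.74) and CLIC4 (0.63 and 0.74) rose in both. CLIC4 and RBP4 lost their calls in the fit with the covariate when mutant replicate 1 was left out (adjusted p = 0.0657 to 0.415), DHRS9 and RBP2_093774 without control replicate 2 (adjusted p = 0.0968 to 0.289), and TTR without control replicate 1 or 2 or mutant replicate 1 (adjusted p = 0.0555 to 0.583). hamp lost the call in the fit that lacks the covariate when control replicate 1, 2 or 3 or mutant replicate 2 was left out (adjusted p = 0.0528 to 0.065) and hpxa without control replicate 3 or 4 (adjusted p = 0.0503 to 0.0515). The count of heme genes lower without the covariate went from 6 to 3 without control replicate 3. The count of retinoid genes higher without the covariate went from 2 to 5 without control replicate 2. For ion channels and aquaporins, the count higher without the covariate went from 12 to between 6 and 7 without control replicate 3 or 4 or mutant replicate 4 or 5.

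Organic ion and bile acid carriers had 6 of 30 members lower and 1 higher, 4 and 1 with the covariate. Besides slc47a2.1 and SLC22A2 the genes called in both fits were slco1d1 and the prostaglandin carrier SLCO2A1 (log2 fold change -2.14 without and -1.42 with the covariate). slco1d1 was at 702, 497, 1190.1 and 1225 CPM in control and 220.1, 180.4, 149, 149.8 and 198 CPM in mutant libraries. slco1d1 differed by -2.33 on the log2 scale (SE 0.26, adjusted p = 1.25e-05) without and -1.34 (SE 0.18, adjusted p = 0.000248) with the covariate. The soluble epoxide hydrolase EPHX2 (-1.23 and -0.67) and the thromboxane synthase TBXAS1 (-1.14 and -1.14) fell in both fits. Of 36 hypoxia genes 8 fell and 4 rose (2 and 3 with the covariate), with falls in both EPAS1 copies, which encode the oxygen-regulated factor HIF-2 alpha (-1.32 and -0.79 for EPAS1_008697 and -1.15 and -0.78 for EPAS1_057671). The hypoxia genes that rose in both fits were PFKFB3 (1.91 and 2.16) and SLC2A1_007412 (0.90 and 0.99), given above. EPAS1_057671 lost the call in the fit with the covariate when control replicate 1 or mutant replicate 1 was left out (adjusted p = 0.0673 to 0.0917) and EPHX2 without control replicate 2 (adjusted p = 0.0714).

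Epithelial and cytoskeletal genes were among the increases. The simple epithelial keratins, which hepatocytes and biliary cells share in mammals, rose in both fits. krt8 was at 685, 644, 707 and 679 CPM in control and 1270.3, 1053, 901, 907 and 1022 CPM in mutant libraries. krt8 differed by 0.60 on the log2 scale (SE 0.086, adjusted p = 1.16e-06) without and 0.80 (SE 0.11, adjusted p = 1.11e-05) with the covariate. krt18a.1 was at 264, 208, 274 and 278 CPM and 815, 630.4, 412, 460.0 and 548 CPM. krt18a.1 differed by 1.16 on the log2 scale (SE 0.21, adjusted p = 0.00127) without and 1.68 (SE 0.25, adjusted p = 0.000571) with the covariate. Of 21 tested keratins 7 rose and 0 fell without the covariate and 2 rose and 0 fell with it, and the 5 that were not called with the covariate had changes of 0.26 to 0.40 without it. Tight junction claudins cldnb (log2 fold change 1.8 without and 1.99 with the covariate), cldn15la (1.41 and 1.52), cldn3d (1.24 and 1.76) and CLDN11_020031 (1.02 and 1.64) rose in both fits, 5 of 53 junction genes rising and 4 falling without and 4 and 0 with the covariate. Shares of junction genes called without the covariate were 9.43% higher and 7.55% lower, beside 6.72% and 10.4% of all tested genes. Biliary markers, of which krt8 and krt18a.1 are abundant members, had the higher share in mutant libraries given above but a median change close to that of all genes, and their part in these changes was not tested. CLDN11_020031 lost the call in the fit with the covariate when control replicate 2 or mutant replicate 1 was left out (adjusted p = 0.0515 to 0.232). CLDN11_020031 lost the call in the fit that lacks the covariate when control replicate 1, 2 or 3 or mutant replicate 4 or 5 was left out (adjusted p = 0.0559 to 0.07) and krt5 without control replicate 3 or 4 or mutant replicate 3, 4 or 5 (adjusted p = 0.0792 to 0.166). The count of keratins higher without the covariate went from 7 to between 3 and 11 without control replicate 2, 3 or 4 or mutant replicate 4.

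Among 75 actin regulators 18 rose and 4 fell (8 and 1 with the covariate, medians 0.22 and 0.15). The filamin flna, which cross-links actin, was at 212, 206, 185 and 175 CPM in control and 386, 379.9, 346, 368 and 371 CPM in mutant libraries. flna differed by 0.93 on the log2 scale (SE 0.10, adjusted p = 2.41e-09) without and 0.85 (SE 0.13, adjusted p = 2.93e-05) with the covariate. The cytoplasmic actin actb1 was at 999.9, 1116, 1041 and 999 CPM and 1805, 1682, 1454, 1478 and 1610.0 CPM. actb1 differed by 0.63 on the log2 scale (SE 0.074, adjusted p = 2.58e-08) without and 0.59 (SE 0.093, adjusted p = 0.000104) with the covariate. The monomer-binding tmsb4x rose in both fits (log2 fold change 0.40 without and 0.27 with the covariate), as did the tubulin tubb4b (0.49 and 0.35). Of 45 tubulins and septins 8 rose without the covariate, and tubb4b was the 1 that rose with it. The small GTPase RHOU_019709 fell (-1.46 and -1.25). The galectin lgals2b (0.71 and 0.68) and annexin anxa13 (0.76 and 0.75) rose, and ANXA4 fell (-0.81 and -0.35). ANXA4 and anxa13 lost their calls in the fit with the covariate when control replicate 2 or mutant replicate 1 or 2 was left out (adjusted p = 0.0564 to 0.482) and RHOU_019709 without control replicate 2 or mutant replicate 1 (adjusted p = 0.116 to 0.498). tmsb4x lost the call in the fit with the covariate when control replicate 2 or mutant replicate 1, 2 or 5 was left out (adjusted p = 0.0504 to 0.358) and tubb4b without mutant replicate 1 (adjusted p = 0.16). The count of actin regulators higher without the covariate went from 18 to 10 without control replicate 4. The count of actin regulators higher with the covariate went from 8 to 4 without control replicate 2 or mutant replicate 1. The count of tubulins and septins higher without the covariate went from 8 to between 4 and 13 without control replicate 2, 3 or 4 or mutant replicate 4.

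Collagens, laminins and other basement membrane genes had more calls without than with the covariate. Of 90 tested, 24 rose and 4 fell without the covariate (median 0.25), and 4 rose and 2 fell with it (median -0.018). The slope on muscle share was called positive for 29 of them. The fibrillar collagen COL1A1 was at 1461, 1677, 1284 and 1261 CPM in control and 1517, 1631, 1908, 1803 and 1767 CPM in mutant libraries, overlapping, with log2 fold change 0.28 without and -0.089 with the covariate. Fibronectin and nidogen, which link cells to the basement membrane, were called in both fits and moved by gene copy. FN1_006526 was at 3005, 1928, 3169 and 3310.2 CPM in control and 854, 739, 578, 615 and 659 CPM in mutant libraries. FN1_006526 differed by -2.05 on the log2 scale (SE 0.29, adjusted p = 0.000125) without and -1.06 (SE 0.24, adjusted p = 0.0129) with the covariate. The copy FN1_019815 rose from 55.7, 60.7, 49.3 and 44.4 CPM to 103, 111, 123.1, 139 and 127 CPM. FN1_019815 differed by 1.2 on the log2 scale (SE 0.13, adjusted p = 1.92e-09) without and 0.84 (SE 0.15, adjusted p = 5.64e-05) with the covariate. NID1_068710 fell (-1.62 and -1.12) and NID1_103129 rose (0.54 and 0.80), and the fibril-associated collagen COL12A1_078322 rose in both fits as well (0.71 and 0.34). COL12A1_078322 and FN1_006526 lost their calls in the fit with the covariate when control replicate 2 or mutant replicate 1 was left out (adjusted p = 0.0741 to 0.319). COL1A1 lost the call in the fit that lacks the covariate when control replicate 3 or 4 was left out (adjusted p = 0.0672 to 0.0695). The count of collagens and basement membrane genes higher without the covariate went from 24 to 13 without control replicate 4.

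Matrix proteases and their inhibitors were higher in 11 and lower in 6 of 63 tested genes (6 and 3 with the covariate). MMP9, a gelatinase, was at 5.38, 5.34, 3.23 and 3.12 CPM in control and 21.1, 17.2, 15.7, 12.9 and 14.6 CPM in mutant libraries. MMP9 differed by 1.92 on the log2 scale (SE 0.32, adjusted p = 1.42e-05) without and 1.66 (SE 0.45, adjusted p = 0.01) with the covariate. adamtsl7 rose (log2 fold change 2.33 without and 2.36 with the covariate), and adamts13, the protease that trims von Willebrand factor, fell (-1.91 and -1.05). The urokinase plaua had 1 read over the 4 control and 117 over the 5 mutant libraries, a ratio of 110 after scaling with an exact 95% interval of 19.3 to 4371 that covers counting error only. The integrin subunit ITGAV rose (0.59 and 0.56). ITGAV and adamtsl7 lost their calls in the fit with the covariate when mutant replicate 1 was left out (adjusted p = 0.083 to 0.128) and MMP9 without control replicate 2 or mutant replicate 1 (adjusted p = 0.0842 to 0.305).

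Of 69 genes of TGF-beta and BMP signalling 9 rose and 8 fell without and 5 and 3 with the covariate. The ligand tgfb1a was at 11.7, 12.14, 14.7 and 11.7 CPM in control and 47.4, 41, 30.6, 29 and 26.9 CPM in mutant libraries. tgfb1a differed by 1.48 on the log2 scale (SE 0.22, adjusted p = 2.28e-06) without and 1.85 (SE 0.30, adjusted p = 5.05e-06) with the covariate. The SMAD co-repressors SKIL (log2 fold change 1.05 without and 1.03 with the covariate) and SKI (0.58 and 0.56) rose, and BMP1_028071, the procollagen and BMP-processing protease, fell (-1.48 and -1.0). Growth factor and MAPK genes rose in 9 and fell in 7 of 96 cases (4 and 1 with the covariate), with MAPK14_000857, a p38 kinase (0.85 and 1.34), the phosphatase DUSP5 (1.17 and 1.6) and the receptor PDGFRB (1.05 and 1.24) among the rises, and the receptor fgfr4, which acts with klb, among the falls (-0.66 and -0.75). In the Wnt family 3 of 56 rose and 3 fell, and the co-receptor LRP5 was the gene called in both fits (-1.31 and -0.88). In the Notch family 2 of 38 rose and 7 fell, and with the covariate 1 rose and 0 fell. Of 47 circadian genes 9 fell and 1 rose, 1 and 0 with the covariate, the call left being PER3 (-0.40 and -0.35). Without the covariate 13% of TGF-beta and BMP genes were higher and 11.6% lower, and 9.38% and 7.29% of growth factor and MAPK genes. For Wnt genes these shares were 5.36% and 5.36%, for Notch genes 5.26% and 18.4%, and for circadian genes 2.13% and 19.1%. Over all tested genes they were 6.72% and 10.4%. DUSP5 lost the call in the fit with the covariate when control replicate 2 or mutant replicate 1 or 2 was left out (adjusted p = 0.0528 to 0.223) and PDGFRB without control replicate 2 or mutant replicate 2 (adjusted p = 0.0609 to 0.555). PER3 lost the call in the fit with the covariate when control replicate 1, 2 or 4 or mutant replicate 1, 2 or 4 was left out (adjusted p = 0.0519 to 0.251) and SKI without control replicate 1 or 2 or mutant replicate 1, 2 or 3 (adjusted p = 0.0501 to 0.352). SKIL lost the call in the fit with the covariate when control replicate 1, 2 or 3 or mutant replicate 1 or 2 was left out (adjusted p = 0.0538 to 0.142) and fgfr4 without control replicate 1 or mutant replicate 1 (adjusted p = 0.057 to 0.085). The count of TGF-beta and BMP genes higher with the covariate went from 5 to 3 without control replicate 2 or mutant replicate 1 or 2. The count of growth factor and MAPK genes lower without the covariate went from 7 to 3 without control replicate 3. The count of Wnt genes higher without the covariate went from 3 to 6 without control replicate 2.

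Immediate early genes, those of transcription factors among them, are switched on by cells within minutes of a stimulus. Genes of this list rose in 11 and fell in 4 of 51 cases (7 and 3 with the covariate, medians 0.20 and 0.26). The AP-1 subunit JUNB_104773 was at 20.1, 27.9, 25.4 and 29.1 CPM in control and 93.3, 87.6, 59.3, 68.2 and 79.3 CPM in mutant libraries. JUNB_104773 differed by 1.6 on the log2 scale (SE 0.22, adjusted p = 1.04e-05) without and 1.87 (SE 0.32, adjusted p = 0.000675) with the covariate. FOSL2, another AP-1 subunit, was at 14, 16.8, 11.7 and 13.2 CPM and 49.9, 38.4, 23.5, 33.7 and 37.3 CPM. FOSL2 differed by 1.39 on the log2 scale (SE 0.22, adjusted p = 5.84e-06) without and 1.71 (SE 0.28, adjusted p = 7.96e-06) with the covariate. KLF11_030844 (log2 fold change -1.58 without and -1.35 with the covariate) and ZFP36L1_021443 (-1.47 and -1.08) fell. Of 12 tested genes of enzymes that make reactive oxygen species or itaconate 4 rose and 1 fell, and with the covariate 1 and 1. ACOD1, the itaconate enzyme of activated macrophages, was at 1.17, 0.486, 0.498 and 0.779 CPM in control and 11.8, 11.6, 8.66, 10.2 and 11.2 CPM in mutant libraries. ACOD1 differed by 3.8 on the log2 scale (SE 0.49, adjusted p = 1.85e-07) without and 4.24 (SE 0.72, adjusted p = 1.52e-05) with the covariate. The whole leukocyte list took a lower share in mutant libraries, 0.112% ± 0.025 (SD), than in control libraries, 0.188% ± 0.0426 (SD). The exact permutation test gave p = 0.0159, adjusted over the tested shares 0.0476. A split of this list, outside the adjusted tests, moved in both directions. Markers other than apoc1 made up 0.0132% ± 0.00156 of control and 0.0519% ± 0.0127 of mutant counts. For apoc1, a gene also expressed in liver, the values were 0.175% ± 0.0441 and 0.0597% ± 0.0124. The part of leukocytes in the changes of ACOD1, MMP9 and the AP-1 genes was not tested.

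**Figure D5:**
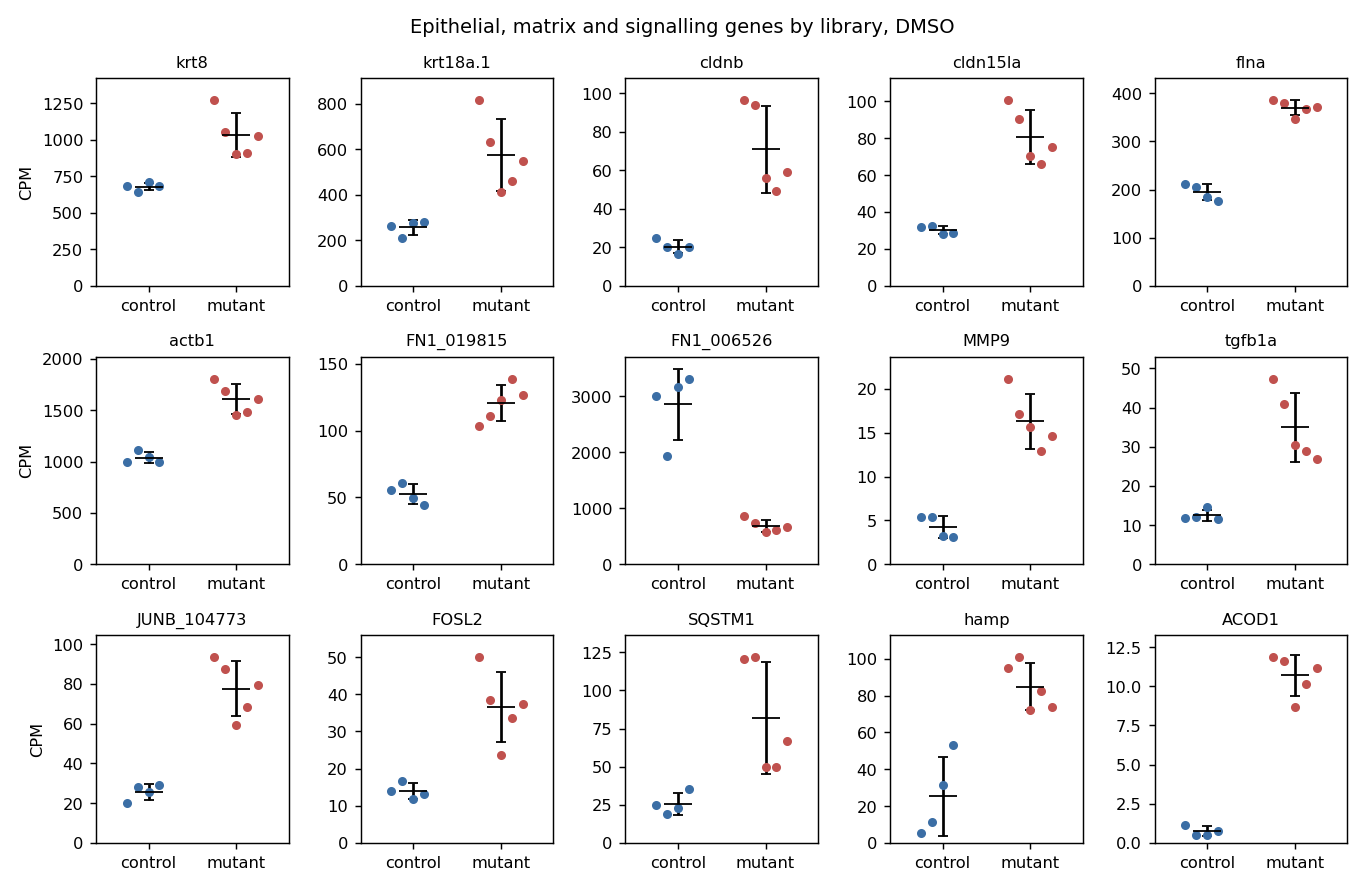
CPM of 15 epithelial, matrix, signalling, iron and autophagy genes in the 4 control (blue) and 5 mutant (red) DMSO libraries, in replicate order from left to right, with mean and SD; every axis starts at 0. All but FN1_006526 are higher in every mutant library than in every control library, and mutant replicates 1 and 2 hold the highest values for krt8, krt18a.1 and SQSTM1. Genes named by rule were picked for lack of overlap, which is therefore no result for them.

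Lysosomal genes were called in both directions, 9 higher and 9 lower of 79 without and 7 and 2 with the covariate. Without it these were 11.4% each, beside 6.72% higher and 10.4% lower over all tested genes. The membrane protein CD63 (log2 fold change 1.06 without and 1.03 with the covariate) and the cathepsins CTSH (1.09 and 1.32) and CTSC (0.95 and 1.21) rose, and CTSO fell (-1.97 and -1.55). Of 56 autophagy genes 3 rose and 8 fell (5.36% and 14.3%), and with the covariate 5 rose and 1 fell. The cargo receptor SQSTM1 (p62) was at 25, 18.7, 22.9 and 35.6 CPM in control and 121, 122, 50.1, 49.6 and 67 CPM in mutant libraries, highest in mutant replicates 1 and 2. SQSTM1 differed by 1.68 on the log2 scale (SE 0.34, adjusted p = 0.00257) without and 2.62 (SE 0.35, adjusted p = 0.000138) with the covariate. A second cargo receptor, OPTN, rose too (0.97 and 1.59), and EPG5, which acts in fusion with lysosomes, fell (-0.79 and -0.82). CTSO lost the call in the fit with the covariate when control replicate 2 was left out (adjusted p = 0.0612) and EPG5 without control replicate 1 or 2 or mutant replicate 1 (adjusted p = 0.0556 to 0.0665). The count of autophagy genes higher with the covariate went from 5 to 3 without control replicate 2 or mutant replicate 1.

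Secretory families had more calls without than with the covariate. Of 95 genes of vesicle coats and the translocon 20 fell and 1 rose without it and 1 and 4 with it (medians -0.24 and 0.081). Of 75 genes of N-linked glycosylation 16 fell and 2 rose, against 2 and 4 (medians -0.24 and 0.13). The coat GTPase sar1b (log2 fold change -1.01 without and -0.43 with the covariate), the sialyltransferase ST3GAL3_015252 (-2.2 and -1.13) and the branching enzyme MGAT4B (-1.63 and -0.83) fell in both fits, and the GTPase arf4b rose (1.95 and 2.12). Phospholipid and sphingolipid enzymes had 17 of 87 lower without and 4 with the covariate, and CHPT1 and CHKA of phosphatidylcholine synthesis (-1.24 and -0.55 for CHPT1 and -1.05 and -0.59 for CHKA), the phosphatidate phosphatase LPIN2 (-1.17 and -0.69) and the ceramidase ACER2 (-2.1 and -1.64) fell in both. ACER2 lost the call in the fit with the covariate when control replicate 1, 2 or 4 or mutant replicate 1, 2, 3 or 5 was left out (adjusted p = 0.0526 to 0.431) and CHKA without control replicate 2 or mutant replicate 2 (adjusted p = 0.0581 to 0.168). LPIN2 lost the call in the fit with the covariate when control replicate 2 or mutant replicate 1 was left out (adjusted p = 0.0866 to 0.138) and MGAT4B without control replicate 1 or 2 or mutant replicate 1 (adjusted p = 0.0595 to 0.57). ST3GAL3_015252 lost the call in the fit with the covariate when control replicate 2 was left out (adjusted p = 0.108) and arf4b without mutant replicate 1 (adjusted p = 0.344). sar1b lost the call in the fit with the covariate when control replicate 2 or 3 or mutant replicate 1 or 5 was left out (adjusted p = 0.0582 to 0.278). The count of coat and translocon genes lower without the covariate went from 20 to between 12 and 32 without control replicate 2, 3 or 4 or mutant replicate 4.

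Families of the nucleus and of general cell upkeep mostly held shares of calls at or below the background of 6.72% higher and 10.4% lower, heterochromatin genes being above it for higher calls with 8.51%. Of 129 splicing genes 8 rose and 4 fell, of 130 RNA polymerase, Mediator and general factor genes 2 and 3, with srsf7a (log2 fold change 0.37 without and 0.49 with the covariate) and MED23 (0.60 and 0.87) rising in both fits. Of 150 numbered zinc finger genes 4 rose and 6 fell. Polycomb and Trithorax genes had 2 of 61 higher and 6 lower, with cbx7a, a Polycomb reader (1.16 and 1.44), and the methyltransferase KMT2C_079312 (-1.07 and -0.57) called in both fits. Histone acetylation genes had 2 of 59 higher and 5 lower, the deacetylase HDAC5 (-1.35 and -1.05) and the co-repressor NCOR1 (-0.54 and -0.50) falling in both fits. Of 47 genes of heterochromatin and H3K9 methylation 4 rose and 0 fell, and of 58 remodeller subunits 3 and 4. Of 108 homeobox genes 1 rose and 0 fell, and of 53 germline and PIWI genes 2 had enough counts to be tested and neither was called. Among 64 nuclear pore and transport genes 3 rose and 1 fell, and with the covariate 5 rose and 0 fell, with the pore subunit NUP210 (0.81 and 1.09) and the importin IPO8 (0.50 and 0.57) rising in both. Of 201 ubiquitin conjugation genes 9 rose and 11 fell, among them the conjugating enzyme ube2l3b, which rose in both fits (0.66 and 0.98). Of 227 Rab and vesicle trafficking genes 14 rose and 15 fell, with EHD3, of endosome recycling, falling in both (-1.99 and -1.49). HDAC5 and MED23 lost their calls in the fit with the covariate when control replicate 2 or mutant replicate 1 was left out (adjusted p = 0.0971 to 0.13) and IPO8 and srsf7a without control replicate 2 or mutant replicate 1 or 2 (adjusted p = 0.0614 to 0.319). KMT2C_079312 lost the call in the fit with the covariate when control replicate 2 was left out (adjusted p = 0.171) and NCOR1 without control replicate 1 (adjusted p = 0.0696). The count of splicing genes higher without the covariate went from 8 to between 1 and 5 without control replicate 1, 3 or 4 or mutant replicate 2, 4 or 5. The count of numbered zinc finger genes lower without the covariate went from 6 to between 1 and 3 without control replicate 3 or 4 or mutant replicate 2, 3 or 5. The count of histone acetylation genes lower without the covariate went from 5 to 3 without control replicate 1 or 4 or mutant replicate 4. The count of nuclear pore and transport genes higher without the covariate went from 3 to 5 without mutant replicate 3. The count of nuclear pore and transport genes higher with the covariate went from 5 to between 1 and 3 without control replicate 2 or mutant replicate 1 or 2. The count of ubiquitin conjugation genes higher without the covariate went from 9 to 4 without control replicate 4. The count of ubiquitin conjugation genes lower without the covariate went from 11 to 7 without control replicate 4. The count of Rab and vesicle trafficking genes higher without the covariate went from 14 to between 6 and 9 without control replicate 3 or 4 or mutant replicate 4 or 5. The count of Rab and vesicle trafficking genes lower without the covariate went from 15 to 7 without control replicate 4.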

How the data were processed

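Total RNA from pools of larval livers was sequenced after removal of ribosomal RNA, and the authors deposited 1 table of read counts per gene and library, as raw whole numbers with no normalization. The submitters' processing notes name FastQC 0.11.5 and Trimmomatic 0.36. For the aligner, counter, build, annotation and strand setting the entry is: not given in the sources used here. Reads of overlapping, antisense or near-identical genes therefore cannot be assigned further, and no sequence is printed.

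Groups were taken from the sample titles. Of 32105 genes in the tables, 17048 passed filterByExpr and held 99.6% of the counts. Counts were scaled by TMM factors (0.762 to 1.16) and tested with edgeR 4.0.16 (limma 3.58.1, R 4.3.3) by the quasi-likelihood test over all 18 libraries, with group means and with or without the log2 muscle share of each library as a covariate with 1 common slope. P-values were adjusted by the Benjamini-Hochberg method over all tested genes, with a threshold of 0.05. SE is the absolute log2 fold change divided by the square root of F. Shares of counts were compared by exact permutation tests, whose smallest p is 0.00794, adjusted over 16 shares. The biological coefficient of variation common to all genes was 0.218, and total counts of 2467926 to 5199301 limit the precision of genes with few reads. No 2 libraries held identical counts (0 pairs). Both fits were also run on simulated counts with known changes between the groups. The simulation held no effect of muscle share, so it cannot test how well the covariate separates genotype from muscle share.

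The members and gene lists were chosen with earlier results of these data known. The rule for named genes took the 10 largest increases and decreases called in the same direction in both fits, with a gene name, at least 5 CPM on average in either group, no overlap of the groups, and outside the lists of interferon and inflammation, sterol, and hepatocyte genes. In each family it took up to 4 members called in both fits without overlap, by smallest adjusted p. Further members were named for their role after their values were seen, and placeholder names were left out after the values were seen. A few members that the rule takes are not reported here. The alternatives were other scaling (DESeq2 1.42.0 size factors, library size alone, TMM without muscle genes), no filter on low counts, the DESeq2 Wald test, the 9 DMSO libraries alone, the replicate number as a block, other forms of the covariate, and each library left out in turn.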

Additional observations from a re-analysis of the deposited data

Results flagged for a closer look

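In 456 groups of 4 or 5 values, those of the genes named above, the marker shares and the total counts, 27 values stood apart from the rest of their group by Dixon's 95% criterion, which chance alone exceeds in about 1 in 20 groups. Their causes were not tested.

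Control replicate 2, the control library with the highest muscle share, held 11 of them. It was the lowest control library for AHCY at 1226 CPM, GAMT at 1336 CPM, NID1_068710 at 524 CPM, SAT1_035652 at 130.1 CPM, SLC16A1_068572 at 116 CPM, phka1a at 42.98 CPM and il6st at 38.1 CPM. It had 0 CPM of mmp13a, where the next control library had 0.995 CPM. It was the highest control library for tubb4b at 425 CPM and for the share of biliary genes at 0.239%, and had the lowest total of the controls, 4141600 counts.

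Among the other control libraries, replicate 1 stood apart for ACER2 at 32.8 CPM and for a share of ribosomal RNA genes of 0.00147%, the lowest of its group. Replicate 3 was highest for KARS1 at 218 CPM and tgfb1a at 14.7 CPM, and replicate 4 for MTHFD1L at 14.3 CPM and bcl3 at 1.82 CPM. Mutant replicate 1 was highest for AHCY at 664 CPM, CLIC4 at 68.8 CPM and the biliary share at 0.374%. Mutant replicate 2 was highest for RHOU_019709 at 40.1 CPM, YARS1 at 74.2 CPM and IPO8 at 74.8 CPM, and mutant replicate 3 for CS at 215 CPM and CYP7B1 at 10.3 CPM. Mutant replicate 4 was lowest for ebi3 at 8.43 CPM, and mutant replicate 5 for eif4ebp3_054916 at 14.2 CPM.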

How the results depend on the processing

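Among the scaling, filter, tool and library-set alternatives, library size alone was the one that moved the counts over all genes by more than 1.5 times, to 4681 genes higher and 1027 lower without the covariate, and it raised UHRF1 to a called log2 fold change of 0.63. With the replicate number as a block, 865 genes were higher and 1515 lower without the covariate, and 609 and 504 with it. Library size alone moved 92 family counts by over 1.5 times, or to or from 0, without the covariate, and 26 stayed. With the covariate it moved 12, and 106 stayed. The 9 DMSO libraries alone moved 23 family counts without the covariate and 28 with it, and 95 and 90 stayed. They also lost 6 calls of named genes without the covariate and 24 with it, and 194 and 173 stayed. Same-numbered control and mutant libraries did not deviate together (correlations of -0.072 to -0.032). These few correlations cannot settle whether the numbers pair the samples, which the labels do not say. With each library left out in turn, 768 to 1415 genes were higher and 1326 to 2041 lower without the covariate, and 330 to 647 higher and 275 to 532 lower with it. The log2 fold change of UHRF1 ranged from 0.19 to 0.41 and the difference in muscle share from 1.95 to 2.74 percentage points. Of the 210 genes named, eef1a1l1 reversed, to 0.17 with library size alone. Over all alternatives 71 of the named genes' calls were lost without the covariate and 236 with it, counting each gene once per alternative, of the latter 64 without control replicate 2 and 65 without mutant replicate 1. The cause was not tested. Depth limits genes with few reads, such as cd40 and plaua.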

Other observations

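Of 1154 symbols that 2 or more tested gene IDs share, 47 had at least 2 IDs called without the covariate and all in 1 direction, and 14 had IDs called in opposite directions. In 3 of these, FN1, NID1 and SLC16A6, the opposite calls held in both fits. SLC16A6 encodes a monocarboxylate carrier, and its copy SLC16A6_060246 was at 9.36, 5.83, 8.46 and 6.23 CPM in control replicates 1 to 4 and 16.6, 18.9, 11.9, 12.4 and 13.5 CPM in mutant replicates 1 to 5. The other copy, SLC16A6_102793, was at 42.1, 34.7, 54.5 and 59.5 CPM in control and 12.7, 9.89, 11.9, 12.15 and 16.2 CPM in mutant libraries. Neither copy overlapped between the groups, but both were picked for their calls in both fits, so this is no separate result. Of all tested genes, 5.83% had every mutant library above every control library, and 8.24% every one below.

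Of the tested genes, 2339 had no symbol or one treated as a placeholder, such as names of clones, open reading frames, numbered FAM genes and small RNAs. A symbol of any kind was present for 16243 tested genes. The 2339 genes were higher in 8.94% and lower in 7.65% of cases without the covariate, against 6.36% and 10.8% of the remaining genes.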
